A study of Mus musculus with 2 samples.

Results

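The antimicrobial genes S100a8, S100a9, Lcn2, Defb3 and Slpi were followed over the spots of 2 sections of inflamed mouse skin. S100a8 and S100a9 encode the calgranulins. All were taken by symbol from the 19465 genes of the count tables, which list each of the 5 members once. The sections came from a study of sphingosine-1-phosphate receptor 2 in imiquimod-treated skin, a mouse model of psoriasis in which daily imiquimod (IMQ) cream inflames the depilated back. One section was S1pr2 f/f, in which the receptor gene is flanked by loxP sites but no Cre is present, and the other was S1pr2 f/f K14-Cre, in which Cre under the keratin 14 promoter removes it from keratinocytes. Both mice were 8 weeks old, were depilated 1 day before and received 62.5 mg of 5% IMQ cream daily for 7 days, so no untreated skin serves as a baseline. With 1 section per genotype no test between genotypes was possible, and genotype cannot be told apart from animal, piece of skin or library.

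S100A8 and S100A9 are small calcium-binding proteins that pair to form calprotectin, which withholds zinc and manganese from microbes and also acts as an inflammatory signal. Keratinocytes make hardly any of them in resting skin and large amounts in psoriatic or wounded epidermis, while neutrophils carry them as a major cytosolic protein. Lipocalin 2, encoded by Lcn2, binds the siderophores with which bacteria collect iron. Defb3 encodes a beta-defensin, a small cationic peptide that damages microbial membranes. Slpi encodes the secretory leukocyte protease inhibitor, which blocks neutrophil elastase and is itself antimicrobial. Interleukin-17, interleukin-22 and interleukin-36 are known to induce such genes in keratinocytes, in the same activated state that switches on the keratins KRT6A and KRT16.

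The assay counts unique molecular identifiers (UMIs, each the tag of 1 captured molecule) of gene-specific probes in spots of an array, and a spot is a small region of tissue, not a cell. The S1pr2 f/f section had 1282 spots and 5315351 UMIs, and the S1pr2 f/f K14-Cre section 981 spots and 2845826 UMIs. Both were placed on arrays of the same layout, so 357 position barcodes occur in both sections without being shared cells. Spots were clustered within each section with the members, the other antimicrobial genes, the neutrophil markers and Krt6a, Krt6b, Krt16 and Krt17 left out. One cluster per section carried the keratinocyte markers and is called epidermis-like: 180 spots with a median of 3296.5 UMIs in S1pr2 f/f and 143 spots with a median of 2395 in S1pr2 f/f K14-Cre. The 17 keratinocyte markers took 11.8% of the UMIs in the former and 6.54% in the latter. Of these markers, 9 were at least 2-fold over the rest of the section in the former and 16 in the latter. The basal markers Krt5 and Trp63 had log2 ratios to the other spots of 0.084 and 0.0052 in S1pr2 f/f. In S1pr2 f/f K14-Cre these were 2.23 and 1.32, so the epidermis-like regions were not alike in their markers. The receptor transcript itself was sparse, with 11 S1pr2 UMIs in the S1pr2 f/f epidermis-like spots and 5 in those of S1pr2 f/f K14-Cre, which is 12.7 CPM (95% interval 6.35 to 22.8) and 10.8 CPM (3.50 to 25.2), and the position of its probes relative to the deleted part is not given in the sources used here. CPM stands for UMIs per 1000000 UMIs of the same region. Background also differed: 1226 chemosensory receptor genes, whose known place is in sensory epithelia, averaged 0.788 UMIs per gene in the S1pr2 f/f epidermis-like spots and 3.49 in those of S1pr2 f/f K14-Cre. Intervals are for counting error only and do not cover the spread between animals.

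In the mm10 genome (GRCm38.p6) S100a8 lies on chromosome 3 at 90669071 to 90670034 and S100a9 close by at 90692630 to 90695721. Lcn2 and Slpi are on chromosome 2, at 32384637 to 32387739 and 164354070 to 164356507, and Defb3 is on chromosome 8 at 19293361 to 19295339. The 250 bases before each gene's start, from RefSeq, were searched on both strands for 3 short motifs of factors that act downstream of these cytokines. The C/EBP motif TTGCNNAA was present in 4 of the 5 members, S100a8 being without it, against 9.56% of all 32851 promoters of that length. The AP-1 motif TGANTCA (6.75% of promoters) and the STAT motif TTCNNNGAA (7.02%) were in none of the 5. The C/EBP matches are shown because the gene for C/EBP beta is among the upstream genes measured below. Each line is a window of 30 bases read 5′ to 3′ on the gene's own strand, with the match in capitals.
S100a9, chr3:90695939-90695968, minus strand: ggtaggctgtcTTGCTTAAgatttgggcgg
Lcn2, chr2:32387937-32387966, minus strand: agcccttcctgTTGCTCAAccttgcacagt
Defb3, chr8:19293171-19293200, plus strand: gatcctcacatTTGCATAAggaacactgag
Slpi, chr2:164356728-164356757, minus strand: gaatttgtaTTGAGCAAtaggttagagttt
The match starts 236 bases before the start of S100a9, 216 before that of Lcn2, 179 before that of Defb3 and 241 before that of Slpi, where it is read on the opposite strand. A match of letters describes the sequence and does not show that a factor binds there.

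All members but Lcn2 were concentrated in the epidermis-like spots of both sections. S100a8 of the S1pr2 f/f section had 17075 CPM in these spots and 3357 in the other spots, a 5.09-fold difference (4.97 to 5.20), and S100a9 had 18269 against 5115, or 3.57-fold (3.50 to 3.65). In S1pr2 f/f K14-Cre the same contrast was 9.85-fold (9.29 to 10.4) for S100a8, with 7058 against 717 CPM, and 4.96-fold (4.57 to 5.38) for S100a9, with 2481 against 500. Defb3 was 5.27-fold (4.56 to 6.08) higher in the epidermis-like spots of S1pr2 f/f and 7.34-fold (5.15 to 10.5) higher in those of S1pr2 f/f K14-Cre. For Slpi the contrast was 2.79-fold (2.49 to 3.12) and 11.7-fold (10.1 to 13.5). These 4 members passed a 2-fold excess in the epidermis-like spots of either section, as did 5.56% of all genes with a minimum of 100 UMIs in S1pr2 f/f and 12.7% in S1pr2 f/f K14-Cre. Lcn2 was lower there than in the other spots, at 0.268 times their level (0.217 to 0.326) in S1pr2 f/f and 0.778 times (0.623 to 0.962) in S1pr2 f/f K14-Cre. The epidermis-like spots held 16.3% of all UMIs of either section, but 49.7% of the S100a8 and 50.6% of the Defb3 UMIs in S1pr2 f/f, and 65.7% of the S100a8 and 69.5% of the Slpi UMIs in S1pr2 f/f K14-Cre.

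The other spots of the sections were not like tissue. A cluster led by Awat1, an enzyme of wax synthesis in sebaceous glands, made up 224 of the S1pr2 f/f spots and had 6.73% keratinocyte marker UMIs, no less than the 6.54% of the S1pr2 f/f K14-Cre epidermis-like spots. It held 9554 of the S100a8 and 439 of the Slpi UMIs outside the epidermis-like spots, leaving 5386 and 455. The Awat1-led cluster of S1pr2 f/f K14-Cre had 2.63%. Against the other spots without this cluster, S100a8 was 8.70-fold higher in the epidermis-like spots of S1pr2 f/f and 14.9-fold higher in those of S1pr2 f/f K14-Cre, S100a9 5.00-fold and 5.71-fold, Defb3 6.46-fold and 16.3-fold, and Slpi 3.38-fold and 19.4-fold. Lcn2 was then 0.298 times the level of the remaining spots in S1pr2 f/f and 0.981 times in S1pr2 f/f K14-Cre, where it was no longer clearly lower.

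**Figure D1:**
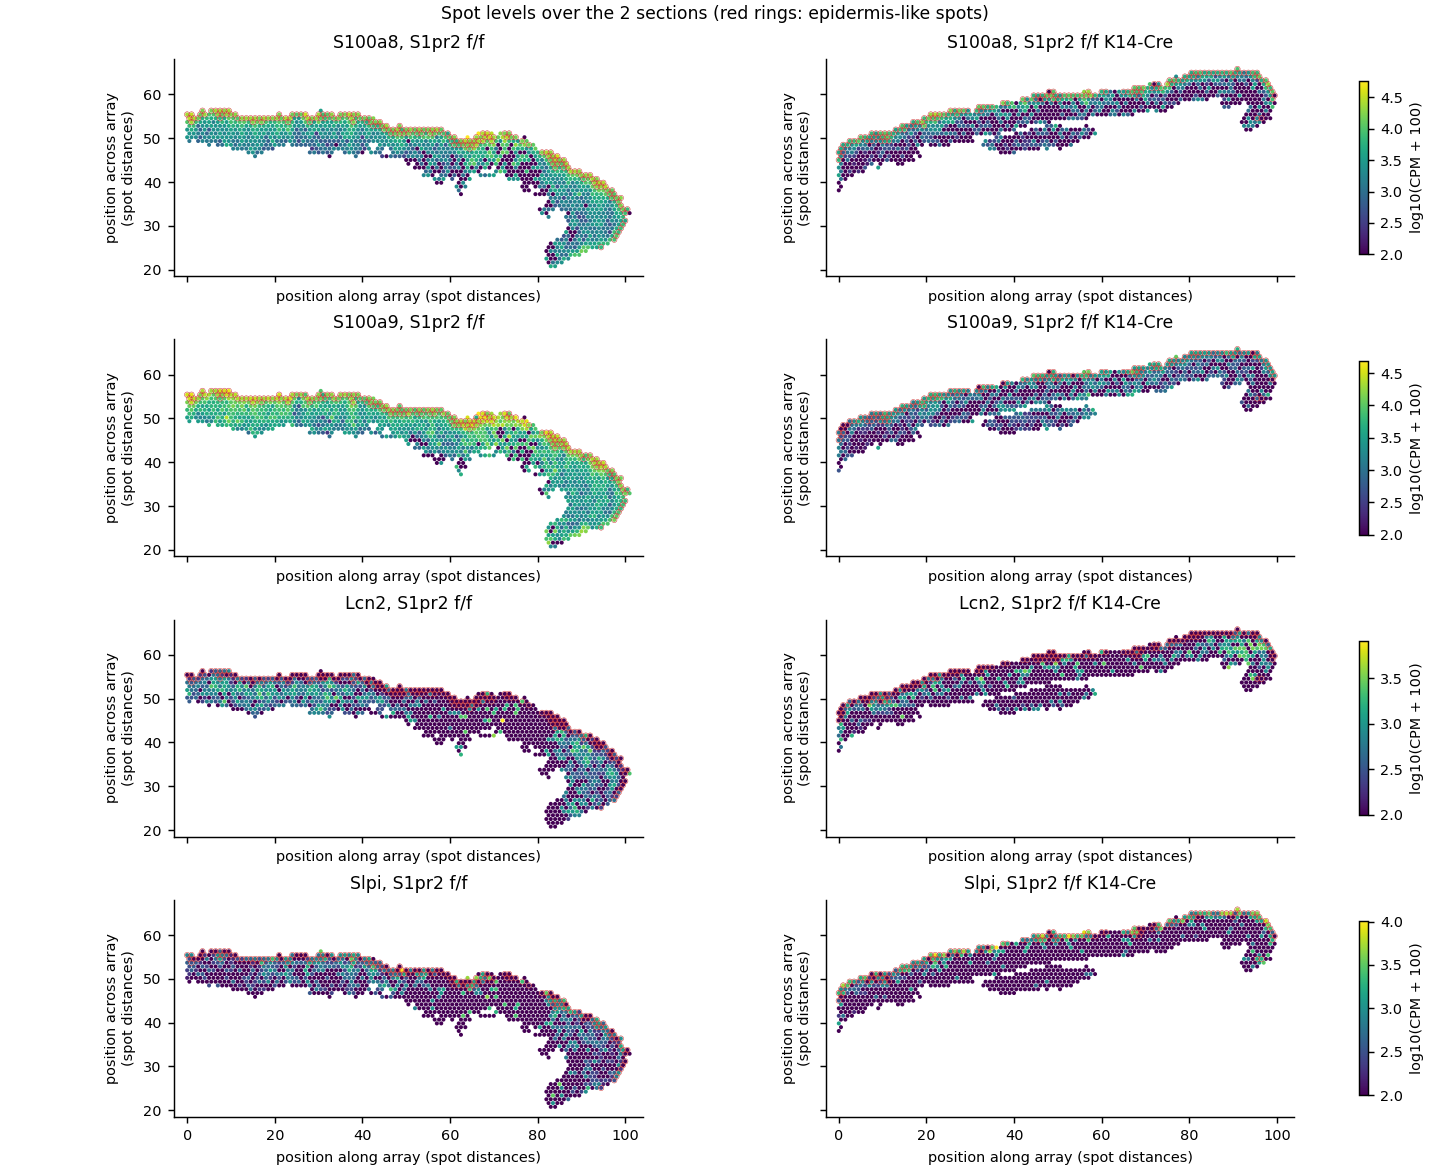
Spots of the main tissue piece of each section (left S1pr2 f/f, right S1pr2 f/f K14-Cre) at their positions on the array in spot distances, coloured by log10(CPM + 100) of S100a8, S100a9, Lcn2 and Slpi on 1 colour scale per gene, with red rings on epidermis-like spots. S100a8 and S100a9 form a bright band along the upper edge of the S1pr2 f/f section, and the band of Slpi is brighter in S1pr2 f/f K14-Cre.

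Depth was measured from the upper edge of the tissue in spot distances. S100a8 was highest at the edge in both sections. It went in S1pr2 f/f from 19376 CPM at the edge through 12946, 6832 and 3488 to 2176 beyond 3 spot distances, and in S1pr2 f/f K14-Cre from 8170 through 4788, 1774 and 649 to 330. The edge stood 8.90-fold above the deepest layer in the former and 24.8-fold in the latter. S100a9 was graded less steeply, from 20667 to 3718 CPM in S1pr2 f/f (5.56-fold) and from 2880 to 374 in S1pr2 f/f K14-Cre (7.70-fold). Defb3 was also highest at the edge, with 482 CPM (411 to 562) there and 67.4 in the deepest layer of S1pr2 f/f, and with 236 (179 to 305) and 9.53 in S1pr2 f/f K14-Cre. The sharpest gradient among the members was that of Slpi in S1pr2 f/f K14-Cre, from 1792 CPM (1628 to 1967) at the edge to 41.3 (31.9 to 52.6) in the deepest layer, a 43.4-fold range. Slpi of S1pr2 f/f spanned only 3.07-fold, from 518 (444 to 601) to 169.

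Lcn2 ran the other way. It was lowest at the edge of both sections, with 122 CPM (87.5 to 165) in S1pr2 f/f and 102 (65.7 to 150) in S1pr2 f/f K14-Cre. Its highest layer was 2 to 3 spot distances down in S1pr2 f/f, with 678 CPM (614 to 747), and 1 to 2 spot distances down in S1pr2 f/f K14-Cre, with 594 (515 to 683). When depth was ranked within array columns instead, the highest layer of the latter was the next deeper one, with 537 CPM against 461. The Awat1-led cluster held 42.4% of the Lcn2 UMIs of S1pr2 f/f at 518 CPM (484 to 553) and 32.4% of those of S1pr2 f/f K14-Cre at 490 (430 to 555). A cluster led by haemoglobin genes in S1pr2 f/f reached 541 CPM (489 to 596). One led by Hp, Cfd and Cyp2e1, genes of fat tissue, reached 403 (350 to 461) in S1pr2 f/f K14-Cre. Both were named fat by their markers, with 6 of 7 fat markers at least 2-fold over the other spots in the former and 7 in the latter. The cluster of S1pr2 f/f named dermis had 460 CPM (416 to 507) and 19.3% of the Lcn2 UMIs of that section. The deep Lcn2 was therefore spread over several clusters.

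**Figure D2:**
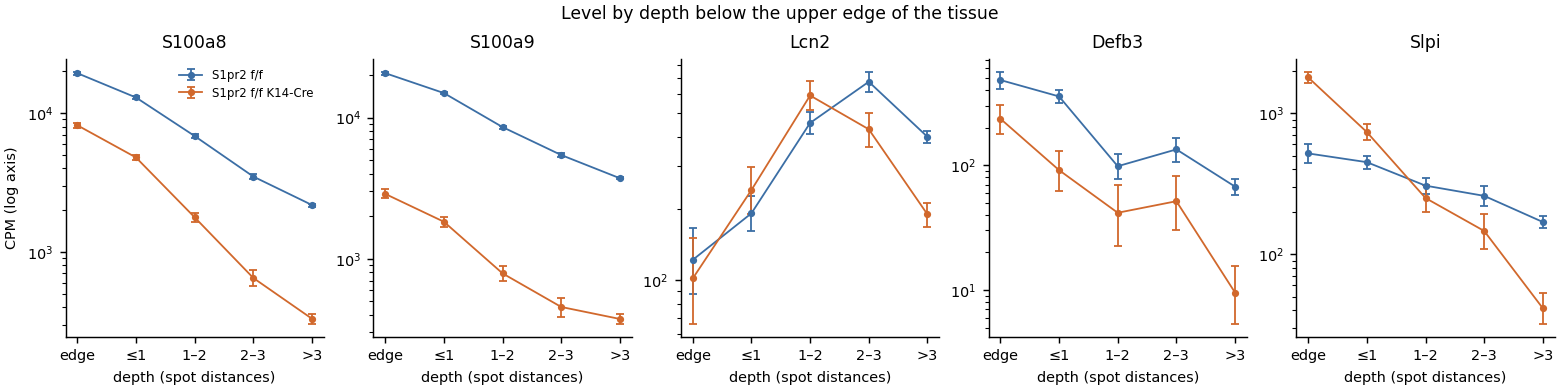
Level of each member in CPM (log axis) against depth below the upper edge in spot distances, for S1pr2 f/f (blue) and S1pr2 f/f K14-Cre (orange), with exact Poisson 95% intervals. S100a8, S100a9, Defb3 and Slpi are highest at the edge in both sections, whereas Lcn2 is lowest there, and the lines of Slpi cross between the upper and the deeper layers.

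Within the epidermis-like spots, the members were placed along keratinocyte differentiation. Spots were ranked by the share of differentiation UMIs (Krt1, Krt10, Flg, Lor and others) among basal plus differentiation UMIs and divided into tertiles by number, called basal, middle and differentiated. A spot spans several cell layers, so the tertiles are mixtures, and the same tertile of the sections is not the same state. The share reached from 33.3% to 93.9% in S1pr2 f/f but from 12.9% to 87.5% in S1pr2 f/f K14-Cre. The calgranulins differed little between the ends of this range, with a shallow peak in the middle tertile of S1pr2 f/f. There S100a9 had 16952 CPM in the basal, 20437 (19915 to 20968) in the middle and 17420 in the differentiated tertile. S100a8 had 17463, 18583 (18086 to 19090) and 15345. In S1pr2 f/f K14-Cre the intervals of the tertiles overlapped for both genes. S100a9 differed by a log2 ratio of 0.039 (−0.018 to 0.096) between the differentiated and the basal tertile of S1pr2 f/f and by 0.16 (−0.067 to 0.38) in S1pr2 f/f K14-Cre. For S100a8 the log2 ratio was −0.19 (−0.24 to −0.13) in S1pr2 f/f and −0.070 (−0.21 to 0.066) in S1pr2 f/f K14-Cre. Over the same spots of S1pr2 f/f, Krt6a was 2.36-fold higher in the basal tertile. Krt10 was 6.32-fold higher in the differentiated tertile, a rise built in by its use in the ranking.

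Defb3 leaned to the basal side in both sections. Its level in S1pr2 f/f was 789 CPM (687 to 903) in the basal, 326 (263 to 399) in the middle and 281 (225 to 347) in the differentiated tertile. In S1pr2 f/f K14-Cre it was 200 (145 to 269), 200 (136 to 283) and 56.5 (18.4 to 132), the last from only 5 UMIs. By the sums of the tertiles, Slpi was ordered oppositely in the sections. It went in S1pr2 f/f from 797 CPM (694 to 911) in the basal through 568 (484 to 662) to 349 (286 to 421) in the differentiated tertile, and in S1pr2 f/f K14-Cre from 1192 (1052 to 1345) through 1352 (1175 to 1548) to 1662 (1404 to 1953). The log2 ratio of differentiated over basal was −1.19 (−1.54 to −0.85) in the former and 0.48 (0.18 to 0.78) in the latter, where it was 0.093 when each spot counted equally. Lcn2 had 28 to 44 UMIs per tertile in S1pr2 f/f, too few to place it, and 54, 37 and 8 in S1pr2 f/f K14-Cre.

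**Figure D3:**
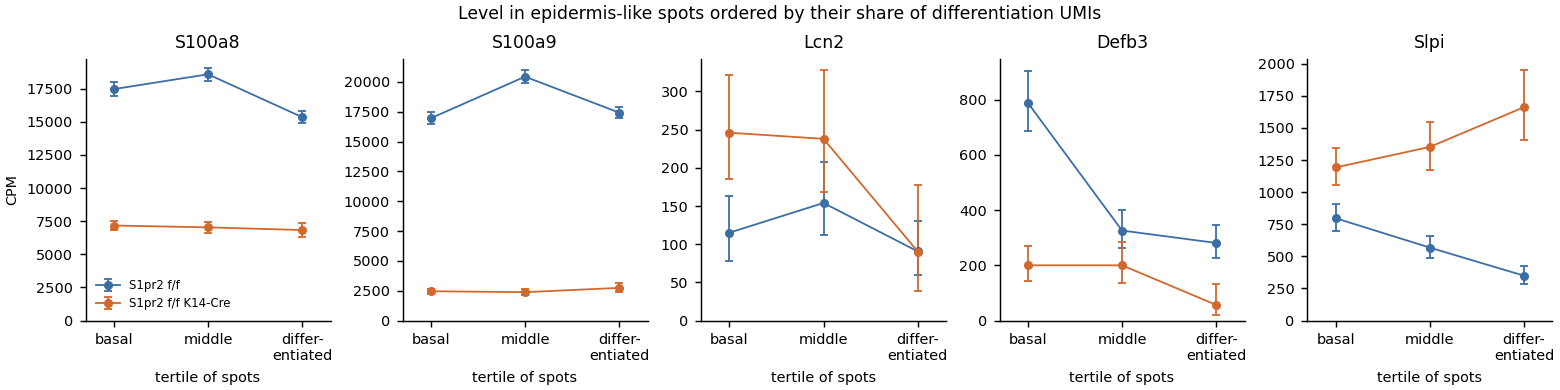
Level of each member in CPM (axes from 0) in the basal, middle and differentiated tertile of the epidermis-like spots of S1pr2 f/f (blue) and S1pr2 f/f K14-Cre (orange), with exact Poisson 95% intervals. The calgranulin lines are nearly flat from end to end, with a shallow peak in the middle tertile of S1pr2 f/f. Defb3 is highest in the basal tertile of S1pr2 f/f, and Slpi slopes down in S1pr2 f/f and up in S1pr2 f/f K14-Cre.

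Between the sections, the calgranulins and Defb3 were lower and Slpi was higher per all UMIs in the epidermis-like spots of S1pr2 f/f K14-Cre. S100a9 was furthest apart, with 18269 CPM (17985 to 18556) in S1pr2 f/f and 2481 (2339 to 2628) in S1pr2 f/f K14-Cre. This is a 7.36-fold difference (6.94 to 7.83), or a log2 ratio of −2.88, below which lay 0.940% of the genes with at least 100 UMIs. S100a8 had 17075 CPM in S1pr2 f/f and 7058 (6818 to 7304) in S1pr2 f/f K14-Cre, a 2.42-fold difference (2.33 to 2.51). Defb3 had 454 CPM (411 to 502) and 173 (137 to 215), a 2.63-fold difference (2.07 to 3.39). Slpi had 561 CPM (512 to 613) and 1335 (1232 to 1445), a log2 ratio of 1.25 (1.08 to 1.43). The 3 members S100a8, S100a9 and Defb3 were at least 2-fold lower in S1pr2 f/f K14-Cre, against 17.6% of all 2233 genes with at least 100 UMIs over both regions, and Slpi alone was at least 2-fold higher, against 15.9%. The median log2 ratio was −1.27 over the 5 members and 0.0050 over all these genes. Fewer keratinocytes in a spot and less RNA per keratinocyte cannot be told apart in these data. The 17 keratinocyte markers also did not move together, with 9 at least 2-fold lower in S1pr2 f/f K14-Cre, 7 within 2-fold and 1 higher. Krt1 and Krt10 were at log2 ratios of −2.28 and −2.58, and Krt14 and Krt5 at −0.25 and 0.52. Markers of other tissues were higher in the S1pr2 f/f K14-Cre epidermis-like spots. Those of dermis summed to 2094 CPM in S1pr2 f/f and 4467 in S1pr2 f/f K14-Cre (log2 ratio 1.09), of muscle to 661 and 1786 (1.43), of fat to 87.9 and 451 (2.36) and of macrophages to 278 and 472 (0.77). Their part in the member differences was not tested.

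Single spots showed how far the calgranulins were separated. Per spot, S100a9 ranged from 3825 to 41569 CPM with a median of 16124 in S1pr2 f/f, and from 0 to 12355 with a median of 2295 in S1pr2 f/f K14-Cre. All 143 spots of S1pr2 f/f K14-Cre lay below the S1pr2 f/f median, and all 180 spots of S1pr2 f/f lay above the S1pr2 f/f K14-Cre median. The ranges overlapped, with 46 spots of S1pr2 f/f at or below the highest of S1pr2 f/f K14-Cre and 32 of the latter at or above the lowest of the former. For S100a8 the ranges were 3889 to 36424 (median 16152) and 0 to 26087 (median 6429), and 133 of 143 spots lay below the S1pr2 f/f median. The share of all genes with spots set as far apart was not counted. Spots of 1 section share their animal and library and are not replicates.

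**Figure D4:**
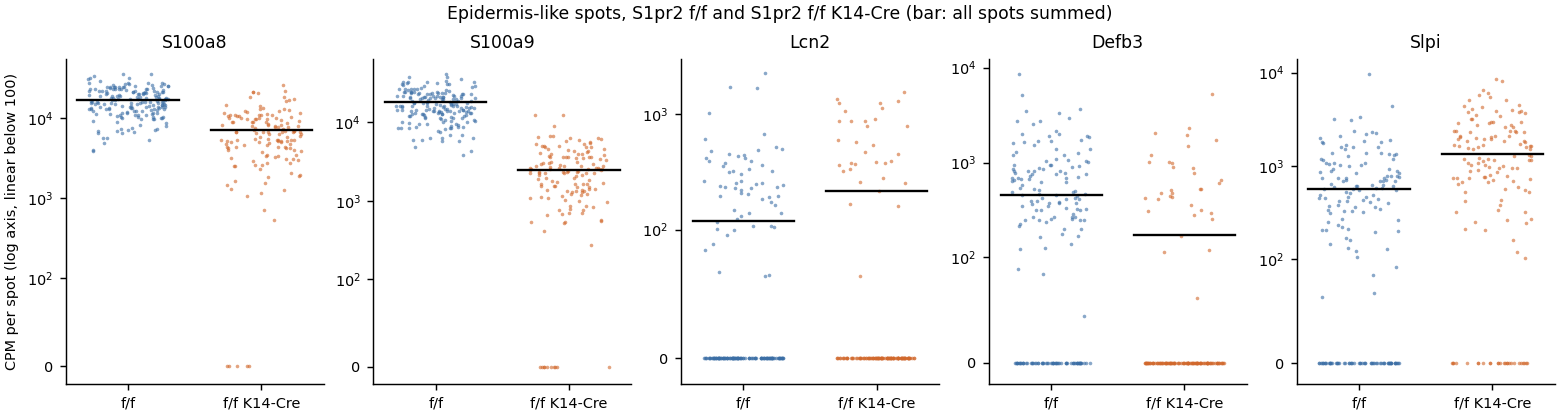
Each point is an epidermis-like spot, 180 of S1pr2 f/f (blue) and 143 of S1pr2 f/f K14-Cre (orange), with its CPM of each member on a log axis that is linear below 100, and the bar is the CPM of all spots summed. The S100a9 clouds overlap in their ranges (3825 to 41569 and 0 to 12355 CPM), each lying beyond the median of the other, those of S100a8 overlap more, and many spots have no UMI of Lcn2 or Defb3.

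The separation of the calgranulins held along the length of the tissue. When the epidermis-like spots were cut into 8 segments of near equal number along the array, S100a9 lay between 12405 and 24455 CPM in S1pr2 f/f and between 1472 and 4011 in S1pr2 f/f K14-Cre. S100a8 lay between 12826 and 20768 and between 5403 and 12055. The point values of neither gene overlapped between the sections, so all 64 pairs of segments ran one way, as for Krt6b and Krt16. The closest S100a8 segments had 12826 CPM (12305 to 13364) in S1pr2 f/f and 12055 (11096 to 13075) in S1pr2 f/f K14-Cre, with overlapping intervals. The share of all genes with all pairs one way was not counted, and segments of a section are not replicates. Defb3 was lower in S1pr2 f/f K14-Cre in 56 of the 64 pairs, with 226 to 807 CPM against 0 to 538. Slpi was lower in 4 of 64, with 249 to 922 against 568 to 2384, and Lcn2 in 19 of 64. The lowest Slpi segment of S1pr2 f/f was an end of the tissue with 249 CPM (187 to 324), where the median differentiation share was 78.3%. Without it, the log2 ratio of Slpi was 1.00, just under 2-fold.

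Levels relative to all UMIs depend on what else a spot holds, and the sign of the ratio for S100a8, Defb3 and Lcn2 changed with that choice. Of these, Defb3 had overlapping intervals per Krt16 UMI, and the changed value of Lcn2 was only −0.024. Per Krt16 UMI, S100a8 was 0.823 (0.805 to 0.841) in S1pr2 f/f and 1.02 (0.975 to 1.08) in S1pr2 f/f K14-Cre, and Defb3 0.0219 (0.0198 to 0.0242) and 0.0250 (0.0198 to 0.0312), so neither was lower. S100a9 stayed lower at 0.880 and 0.360, a log2 ratio of −1.29, while Krt16 itself was at −1.59 per all UMIs. Per keratinocyte marker UMI the log2 ratio of S100a9 was −2.03, and that of S100a8 −0.42 and of Defb3 −0.55, no longer 2-fold lower. That list includes differentiation genes such as Krt1 and Krt10, so this denominator is not a count of keratinocytes. Per Krt14 UMI they were −2.63, −1.03 and −1.15. Under the TMM factor of edgeR, computed without a minimum of UMIs per gene, they were −3.75, −2.14 and −2.26. This factor lowers the log2 ratio of every gene by 0.87. It does so also for the genes with at least 100 UMIs, whose median was already 0.0050 per all UMIs. S100a9 was at least 2-fold lower in S1pr2 f/f K14-Cre under each of these 5 denominators, with the share of all genes counted per all UMIs only. Slpi was higher under all of them, at 2.10 per keratinocyte marker UMI, 1.50 per Krt14 UMI, 2.84 per Krt16 UMI and 0.39 under TMM. Lcn2, with 103 and 99 UMIs, had a log2 ratio of 0.84 (0.43 to 1.25) as measured, of 1.69 per keratinocyte marker UMI, of 2.43 per Krt16 UMI and of −0.024 under TMM. It was 0.39 without the 5 spots with most of its UMIs, 0.099 after thinning each spot to 1000 UMIs and 0.092 over all spots within 1 spot distance of the edge.

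**Figure D5:**
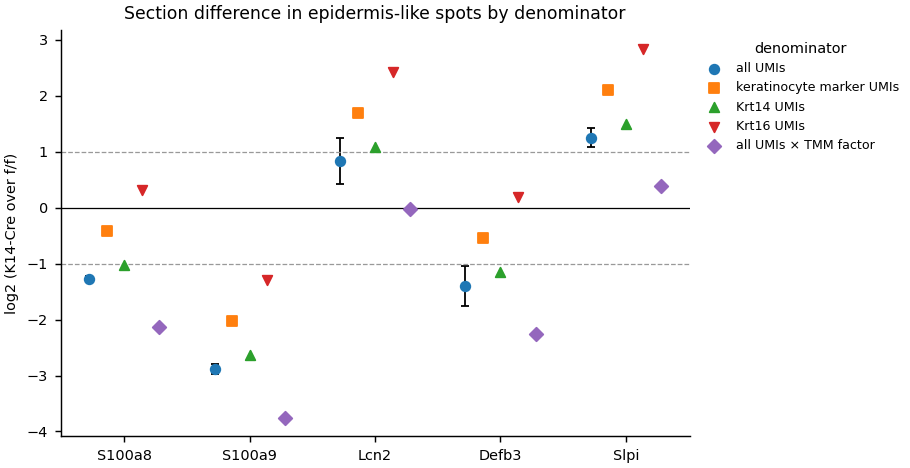
Log2 ratio of S1pr2 f/f K14-Cre over S1pr2 f/f in the epidermis-like spots for each member under 5 denominators, with the conditional binomial 95% interval on the ratio per all UMIs and dashed lines at 2-fold. S100a9 lies below −1 throughout and Slpi above 0 throughout, S100a8 (0.32) and Defb3 (0.19) are above 0 per Krt16 UMI, and Lcn2 reaches from 2.43 down to −0.024.

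Because the differentiation share differed between the sections, the members were also compared in epidermis-like spots with 40 to 60% of it, 52 in S1pr2 f/f and 51 in S1pr2 f/f K14-Cre. S100a8 was 17499 CPM in the former and 7584 in the latter, and S100a9 17137 and 2770. Defb3 was 752 and 164, and Slpi 744 and 1389. In these spots the calgranulin and Defb3 differences were at least 2-fold, and that of Slpi was under 2-fold, with no share of all genes counted. The range lay in the basal tertile of S1pr2 f/f (33.3 to 61.6%). In S1pr2 f/f K14-Cre it lay in the middle (34.4 to 47.3%) and differentiated (47.9 to 87.5%) tertiles. Spots of a like share therefore held different ranks within their sections, and whether they were in a like state was not measured. The part of differentiation in the differences was not tested. In the differentiated tertile alone, Slpi had 1662 CPM in S1pr2 f/f K14-Cre and 349 in S1pr2 f/f, a log2 ratio of 2.25 (1.88 to 2.62), against 0.58 (0.32 to 0.85) in the basal tertile.

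Over all spots of the tissue the same 3 members were at least 2-fold lower in S1pr2 f/f K14-Cre per all UMIs. S100a9 had 38560 UMIs in S1pr2 f/f and 2342 in S1pr2 f/f K14-Cre, 8.82-fold less per UMI (8.45 to 9.19). S100a8 had 29706 and 4979, or 3.19-fold less (3.10 to 3.29), and Defb3 777 and 136, or 3.06-fold less (2.55 to 3.70). The keratinocyte markers took 5.35% of all UMIs of S1pr2 f/f and 1.85% of those of S1pr2 f/f K14-Cre. Per Krt16 UMI S100a9 stayed lower in the latter, at 0.892 and 0.432. S100a8 (0.688 and 0.919) and Defb3 (0.0180 and 0.0251) were then not lower. Of all 10439 genes counted at 100 or more UMIs, 6.83% were lower by 2-fold or more and 6.73% higher, and no member was among the latter. The log2 ratio was −0.57 (−0.69 to −0.45) for Lcn2, with 2083 and 753 UMIs. For Slpi, with 1379 and 891 UMIs, it was 0.27 (0.15 to 0.39) per all UMIs and −0.10 under TMM. Outside the epidermis-like spots, Lcn2 (−0.70, −0.83 to −0.57) and Slpi (−0.82, −1.02 to −0.62) were both lower in S1pr2 f/f K14-Cre per all UMIs. Per Krt16 UMI both were higher there, Lcn2 at 0.294 against 0.0784 in S1pr2 f/f and Slpi at 0.122 against 0.0354.

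The balance of the calgranulin pair differed between the sections and with depth. Since each gene has its own probes, the ratio of S100a9 to S100a8 UMIs is not a ratio of molecules, but its change between regions can be read. In the epidermis-like spots it was 1.07 (1.05 to 1.09) in S1pr2 f/f and 0.351 (0.328 to 0.376) in S1pr2 f/f K14-Cre. It was above the S1pr2 f/f K14-Cre range in every segment of S1pr2 f/f, 0.866 to 1.22 against 0.260 to 0.474. Among spots with at least 10 UMIs of the pair, 94 of 176 epidermis-like spots of S1pr2 f/f and 5 of 116 of S1pr2 f/f K14-Cre held more S100a9 than S100a8. The ratio was higher at depth in both, at 1.71 (1.66 to 1.76) beyond 3 spot distances against 1.07 at the edge in S1pr2 f/f, and at 1.13 against 0.353 in S1pr2 f/f K14-Cre, so S100a8 was the more concentrated of the pair at the surface.

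Calgranulin RNA was also found in clusters away from the epidermis, which held keratin RNA too. In the S1pr2 f/f cluster led by the muscle genes Tnnt1 and Myh2, S100a9 had 2705 CPM (2591 to 2823) and was detected in 132 of 133 spots. Keratinocyte markers summed to 16666 CPM there, against 2222 in the muscle-led cluster of S1pr2 f/f K14-Cre whose leading genes include Fbxo40 and Myoz2, where S100a9 had 527 (469 to 591). Per Krt16 UMI, S100a9 was 0.880 (0.862 to 0.899) in the epidermis-like spots of S1pr2 f/f, 0.901 (0.885 to 0.917) in its other spots and 0.936 (0.881 to 0.994) in that muscle-led cluster. S100a8 was 0.823 (0.805 to 0.841) per Krt16 UMI in the epidermis-like spots and 0.470 (0.436 to 0.506) in the muscle-led cluster, so it was lower relative to Krt16 at depth. The ratio was less even elsewhere. S100a9 per Krt16 UMI was 1.06 in the haemoglobin-led cluster of S1pr2 f/f. In S1pr2 f/f K14-Cre it was 0.360 (0.336 to 0.385) in the epidermis-like spots, 0.536 in the other spots and 0.758 (0.650 to 0.884) in the muscle-led cluster, so there it was higher at depth. The part of RNA spread from the epidermis in these levels was not tested.

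Neutrophils, the other known source of calgranulins, were read from 12 marker genes. In the epidermis-like spots these summed to 101 CPM (80.6 to 124) in S1pr2 f/f and 190 (152 to 234) in S1pr2 f/f K14-Cre, from 87 and 88 UMIs. The chemosensory background averaged 0.788 and 3.49 UMIs per gene in these spots, so the sums are not read as amounts of neutrophils. Most of the markers were near 0, apart from Cxcr2 with 46 and 32 UMIs. Cxcr2 was higher in the epidermis-like than in the other spots, at log2 ratios of 1.32 and 1.78, whereas Csf3r was at −2.71 and −1.66. Csf3r had 8 and 4 UMIs, Ly6g 2 and 8, Mpo 0 and 6, and Ngp 0 and 4. In the S1pr2 f/f spots 2 of the 12 markers had no UMI. Over all spots the list was 170 CPM (159 to 182) and 167 (152 to 182). Its genes moved both ways there. Csf3r, with 277 and 69 UMIs, and Il1r2, with 222 and 60, were lower in S1pr2 f/f K14-Cre at log2 ratios of −1.10 and −0.99, whereas Ngp (26 and 35 UMIs, 1.33), Mpo (10 and 16, 1.58) and Fpr1 (54 and 61, 1.08) were higher. Of the last 3, Mpo lies near the chemosensory background, which averaged 11.8 and 17.0 UMIs per gene over all spots. Ngp and Fpr1 lie above that mean, but single chemosensory genes reached 202 and 225 UMIs. The part of neutrophils in the calgranulin levels was not tested.

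Co-detection with Krt6a and Krt16 was measured after thinning each epidermis-like spot to 1000 UMIs, which left out 28 of the 180 and 14 of the 143 spots as too shallow. At this depth Krt16 was detected in 100% of the 152 S1pr2 f/f spots and in 98.4% of the 129 S1pr2 f/f K14-Cre spots, and Krt6a in 98.7% and 83.7%. S100a8 was detected in 99.3% and 96.1% of spots. S100a9 was detected in 100% and 79.8%, Defb3 in 32.9% and 15.5%, Slpi in 36.8% and 65.1%, and Lcn2 in 12.5% and 13.2%. A chemosensory receptor gene was detected in a median of 0% and 0.775% of the same spots, and in 0.658% and 2.33% at the 95th percentile of these genes, so all members were above this background.

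With Krt16 nearly everywhere, a member was nearly always found beside it. In S1pr2 f/f the same held for Krt6a, which was itself less frequent in S1pr2 f/f K14-Cre. Of the S1pr2 f/f spots, 98.2 to 100% of those with a given member also held Krt6a, and all held Krt16. In S1pr2 f/f K14-Cre, Krt16 accompanied each member in 98.8 to 100% of its spots. Krt6a was found in 84.5% (76.0 to 90.9) of the spots with S100a9 and in 80.8% of those without it. It was found in 89.3% of the spots with Slpi and 73.3% of those without. With another random draw of the thinning Krt6a was in 99 of 110 spots with S100a9 against 12 of 19 without it, and in 73 of 83 with Slpi against 38 of 46 without, so the size and order of the contrasts changed with the draw and nothing is read from them. The mean amounts of Krt6a that follow are from the first draw alone and have no interval, so nothing is read from them either. S1pr2 f/f K14-Cre spots with S100a9 held 3.67 Krt6a UMIs on average and those without it 2.27. Among S1pr2 f/f spots, those with Defb3 held 8.78 Krt6a UMIs and those without it 7.07, while Lcn2 went with fewer, 6.53 against 7.79.

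Outside the epidermis-like spots the members also met the keratins. Of the S1pr2 f/f section, 71.9% of the 826 other spots that reach 1000 UMIs held both S100a9 and Krt6a, close to the 69.9% that the separate shares multiply to. For S1pr2 f/f K14-Cre, 12.4% of 741 such spots held both, against 10.6%, and for S100a8 the values were 15.5% and 11.1%. No member was detected in 33.7% (30.3 to 37.3) of these S1pr2 f/f K14-Cre spots and in 1.94% (1.11 to 3.13) of those of S1pr2 f/f. In the epidermis-like spots 3 of the 5 members together were the most frequent case, in 42.8% (34.8 to 51.0) and 46.5% (37.7 to 55.5).

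Levels per spot were also set against each other over the 180 and 143 epidermis-like spots, as a description of spots that share a library. The Spearman correlation of S100a8 with S100a9 was 0.64 in S1pr2 f/f and 0.46 in S1pr2 f/f K14-Cre. S100a8 correlated with Krt6a at 0.37 and 0.43 and with Krt16 at 0.42 and 0.34, and S100a9 with Krt6a at 0.33 and 0.43 and with Krt16 at 0.40 and 0.37. Neither calgranulin followed the UMI total of the spots, with values between −0.091 and 0.057. Defb3 correlated with Krt6a at 0.38 and 0.15 and with Krt10 at −0.41 and −0.25. The latter lay on the basal side as in the tertiles, in part built in because Krt10 is used in their ranking. Slpi correlated with Krt10 at −0.27 and −0.24, the same sign in both sections, unlike its tertiles. With Lor it was at −0.37 and 0.013. Lcn2 correlated more with the UMI total, at 0.35 and 0.40, than with either keratin. Among the 617 genes that reached 100 UMIs in both regions, those most like S100a8 by the mean of both correlations were S100a9 (0.55), Krt6b (0.53), Sprr2d (0.41), Krt6a (0.40) and Sprr2i (0.38). S100a8, Krt6b, Krt16, Sprr2d and Krt6a were most like S100a9, and Klk6 (0.39), Sprr1a (0.32), Lce3a (0.29), Sprr2i (0.28) and Lce3b (0.27) most like Slpi. The Sprr and Lce genes encode precursors of the cornified envelope, and Klk6 a secreted protease. Lcn2 and Defb3 had under 100 UMIs in 1 region and were not compared.

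Of the 4 keratins of the activated epidermis, 3 were lower in S1pr2 f/f K14-Cre by at least 2-fold per all UMIs, beside 17.6% of all genes with at least 100 UMIs. Under TMM 3 were as well and per keratinocyte marker UMI none was, with no share of all genes counted under either. Krt6a had a log2 ratio of −1.11 (−1.18 to −1.03) between the epidermis-like spots of the sections, Krt6b −1.23 (−1.27 to −1.18) and Krt16 −1.59 (−1.64 to −1.54), whereas Krt17 differed little at −0.096 (−0.19 to −0.0071). S100a9, at −2.88, was further apart than any of them, and S100a8, at −1.27, was within their range. The differentiation genes beside them had a median of −1.89, with 14 of 15 at least 2-fold lower. Of the 14 that reached 100 UMIs 13 were, beside the same 17.6% of all such genes. The 8 basal genes had a median of 0.47.

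Other antimicrobial genes of the skin were taken from a list of 19. Of these, 12 had at least 20 UMIs in the epidermis-like spots, of which 3 were at least 2-fold lower in S1pr2 f/f K14-Cre, none was higher by as much and 9 lay within 2-fold, with a median log2 ratio of −0.46. Of the 5 that reached 100 UMIs 1 was at least 2-fold lower, beside the 17.6% of all such genes. Under TMM 8 of the 12 were at least 2-fold lower, and per keratinocyte marker UMI none was. The shares of all genes under these denominators were not counted. The 3 lower per all UMIs were S100a7a (−1.44), the mouse relative of psoriasin, Defb4 (−1.61), a beta-defensin induced by inflammation, and Wfdc12 (−1.73), whose protein is a relative of SLPI. Defb1, a beta-defensin made without inflammation, was at −0.28 (−0.50 to −0.058). Slpi, at 1.25, lay outside the range of these 12, which reached from −1.73 to 0.65.

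Among 14 genes of the interleukin-17, interleukin-22 and interleukin-36 response, 12 had at least 20 UMIs, with 5 at least 2-fold lower, 1 higher and a median of −0.93. Of the 6 that reached 100 UMIs 3 were at least 2-fold lower and 0 higher, beside 17.6% and 15.9% of all such genes. Of the 12, 9 were at least 2-fold lower under TMM and 3 per keratinocyte marker UMI, with no share of all genes counted under either. The interleukin-36 cytokines, which keratinocytes secrete and answer to, were all lower per all UMIs: Il36a with 1036 CPM in S1pr2 f/f and 186 in S1pr2 f/f K14-Cre (−2.48, −2.82 to −2.16), Il36b at −1.87 (−2.50 to −1.29) and Il36g at −1.15 (−1.38 to −0.92), which was at 0.44 per Krt16 UMI. Nfkbiz, an interleukin-17 target that drives antimicrobial genes, was at −1.69 from 66 and 11 UMIs, and Traf3ip2, the adaptor of the interleukin-17 receptor, at −2.22 from 26 and 3. Cebpb, the gene of C/EBP beta, was at 0.38 (0.23 to 0.53) per all UMIs and −0.48 under TMM, and Cebpd was higher, at 1.20 (0.41 to 2.00) from 26 and 32 UMIs.

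Of 7 other epidermal S100 genes 6 reached 100 UMIs, with a median of −0.036, and 1 of them, S100a11 (−1.20, −1.46 to −0.94), was at least 2-fold lower, beside 17.6% of all genes. Under TMM 3 of the 6 were, and the share of all genes under TMM was not counted. The list leaves out S100a7a (−1.44), counted above, and the fused-type S100 genes Flg (−4.14), Hrnr (−4.02), Rptn (−4.41) and Flg2 (−1.94), counted with the differentiation genes. S100a14 was at 0.35 (0.24 to 0.47) per all UMIs and −0.51 under TMM, and S100a6 at −0.15 (−0.32 to 0.023). Receptors and partners of the members, such as Tlr4, Ager, Mmp9 and Elane, were too sparse in the epidermis-like spots to compare. Of 10 listed, only Cd36 had 20 UMIs, with 26 and 21.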

How the data were processed

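Visium CytAssist was run on 2 FFPE skin sections of 10 µm, 1 per genotype, on 11 mm capture areas. The deposited values are unnormalized UMI counts for every gene in every spot over tissue, which the file header credits to Space Ranger 3.0.0. The submitters' processing notes name mm10, and the probe set is not given in the sources used here. Groups follow the genotype labels.

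Counts were summed over spots and divided by all UMIs of the region (CPM). Intervals are 95%: exact Poisson for CPM, conditional binomial for ratios and Clopper-Pearson for shares. Spots with at least 50 UMIs (46 and 7 were left out) were clustered per section in Python 3.11.15 by scanpy 1.11.5, using igraph 0.11.9 (2000 variable genes, 20 components, 15 neighbours, Leiden resolution 1). A cluster was named where at least 50% of a class's markers were at least 2-fold over other spots. The ratio code was tested on simulated data. TMM factors came from edgeR 4.0.16 in R 4.3.3, and no test was run.

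The members and gene lists were chosen with earlier results of these data known. Named were the members, the keratins, list genes with at least 20 UMIs in the epidermis-like spots of both sections together, and the 5 genes most like each member with at least 100 UMIs per section. Folds were counted among genes with at least 100 UMIs. Of the interleukin list 3 genes were matched by older symbols (Il1f6, Il1f8, Il1f9). Other definitions of the epidermis, denominators, thinning depths and left-out spots were tried. Those per Krt14 UMI, per Krt16 UMI, at 40 to 60% differentiation UMIs, without each of the 8 segments and without the Awat1-led cluster were chosen after seeing the data. Clusters led by muscle, sebaceous, fat or blood genes, and the receptor genes too sparse to compare, are named after their values were seen.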

Additional observations from a re-analysis of the deposited data

Results flagged for a closer look

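Per all UMIs, Lcn2 differed between the sections in opposite directions by region, with a log2 ratio of S1pr2 f/f K14-Cre over S1pr2 f/f of 0.84 in the epidermis-like spots and −0.70 in the other spots. Slpi did likewise, at 1.25 and −0.82. Per Krt16 UMI the directions were not opposite. In the other spots Lcn2 was then 0.0784 in S1pr2 f/f and 0.294 in S1pr2 f/f K14-Cre, and Slpi 0.0354 and 0.122. Slpi was also ordered oppositely by tertile sums, with a log2 ratio of the differentiated over the basal tertile of −1.19 in S1pr2 f/f and 0.48 in S1pr2 f/f K14-Cre. The latter was much smaller when each spot counted equally. Over single spots the Spearman correlation of Slpi with Krt10 had the same sign in both, at −0.27 and −0.24. These contrasts rest on 1 section per genotype, and the differences between them were not tested.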

How the results depend on the processing

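The count of members at least 2-fold lower in the epidermis-like spots of S1pr2 f/f K14-Cre was 3, and 1 per keratinocyte marker UMI and per Krt16 UMI. For the main setting, the shares of all genes beside these counts are 17.6% lower and 15.9% higher. For the alternatives no such share was counted in either direction, so their member counts have no background to be set against. The count of members at least 2-fold higher was 1. It was 2 with spots ranked by keratinocyte marker share, per keratinocyte marker UMI, per Krt14 UMI, per Krt16 UMI and without segment 7 of S1pr2 f/f K14-Cre, and 0 with TMM factors, in spots with 40 to 60% differentiation UMIs and without segment 1 of S1pr2 f/f. TMM reversed Lcn2 in these spots (−0.024) and Slpi over all spots (−0.10), and the Krt16 denominator reversed S100a8 (0.32) and Defb3 (0.19). A reversal here is a change of sign, with no interval set on the new value. Among the log2 ratios of members whose interval excluded 0, no other was reversed under the alternatives counted here. The Krt16 denominator was counted in the epidermis-like spots only. Elsewhere it also turned members that were lower in S1pr2 f/f K14-Cre per all UMIs to higher. These were S100a8, Defb3 and Lcn2 over all spots, and S100a8, Defb3, Lcn2 and Slpi in the other spots. Ratios with an interval that holds 0 were not counted as reversed. TMM shifts every gene by −0.87 in the epidermis-like spots and −0.37 over all spots, and the keratinocyte denominator shifts them by 0.85. Of 145 values over 29 alternatives in the epidermis-like spots, 97 stayed within the interval, 45 moved in the same direction and 3 reversed. The alternatives that leave out 1 segment keep most of the spots, so their values were bound to stay near the main ones. Without them 65 values remain, and all 3 reversals are among these. Leaving out 1 segment at a time gave −1.40 to −1.17 for S100a8, −2.99 to −2.70 for S100a9, 0.45 to 1.04 for Lcn2, −1.81 to −1.13 for Defb3 and 1.00 to 1.47 for Slpi. The share of S100a9 spots with Krt6a in S1pr2 f/f K14-Cre was 84.5%, and 94.0% without thinning. The layer order had 8 of 10 member and section pairs highest at the edge also when depth was ranked within array columns, but Lcn2 of S1pr2 f/f K14-Cre was then highest 1 layer deeper. Members with few UMIs are limited by depth, Lcn2 and Defb3 most. No paired analysis was possible because each group has 1 section.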
